A study of Bos taurus with 19 samples.

Results

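DGAT1 and DGAT2 are the diacylglycerol O-acyltransferases, and the expression of this pair was followed in the subcutaneous adipose tissue of 19 Holstein-Friesian bulls. The pair was chosen by Ensembl identifier, ENSBTAG00000026356 for DGAT1 and ENSBTAG00000001154 for DGAT2, so 2 of the 25670 genes in the count files are described. The names came with the identifiers. The files carry identifiers alone, and the RefSeq gene table used here matched 0 of the 25670, so the names were not checked against an annotation. Tissue was taken from the flank at a mean age of 126 days, and each library is the RNA of 1 animal. In all, 10 bulls had been reared on the High plane of nutrition (growth of 1.08 kg/day per the labels) and 9 on the Low plane (0.5 kg/day). Both groups received milk replacer together with concentrate until weaning and concentrate thereafter. Amounts were larger in High, with concentrate offered freely, and restricted in Low, and straw and water were given to all calves. All animals were males of 1 breed. The paper assigned 10 calves to each diet, in blocks of sire, farm of origin, age and initial weight. The samples hold only 9 Low animals and the labels do not give the blocks. Balance over the diets was therefore not checked for these 19 animals.

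Both enzymes carry out the last step of triglyceride synthesis, in which a fatty acyl-CoA is joined to diacylglycerol. DGAT1 is a protein of the endoplasmic reticulum membrane that belongs to the same enzyme family as the sterol acyltransferases. DGAT2 is unrelated to it in sequence, belongs to the family of the monoacylglycerol acyltransferases, and is found both at the endoplasmic reticulum and on lipid droplets. DGAT2 is known for handling newly made fatty acids, and DGAT1 for re-esterifying fatty acids that enter from outside or are released by lipolysis. Adipocytes express both.

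In the RefSeq annotation of a later bovine assembly (ARS-UCD2.0), whose coordinates do not apply to the UMD3.1 counts, DGAT1 lies between SCRT1 and HSF1 and overlaps the end of HSF1, a heat shock transcription factor. The strand setting of the counting is not given in the sources used here, so reads from that overlap could have been lost or exchanged between DGAT1 and HSF1. DGAT2 overlaps neither neighbouring protein-coding gene in that annotation, and the nearest on one side is a copy of MOGAT2, a monoacylglycerol acyltransferase of the same family as DGAT2. RefSeq lists 2 transcripts for DGAT1 and 1 for DGAT2, and the counts are per gene, without a split by transcript.

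Counted reads per animal ranged from 8608800 to 17691547 in High and from 7656100 to 12348770 in Low, with more reads in High by a two-sided exact permutation test (p = 0.0251). Levels are given as CPM, in which the reads of a gene are divided by the size of its library, after correction of that size by the trimmed mean of M-values (TMM). A gene was tested where 9 or more libraries reached 5 CPM, which left 10064 genes, DGAT1 and DGAT2 among them. In these bulk samples, fewer adipocytes and less RNA per adipocyte cannot be told apart. The paper's histology of this tissue counted far fewer adipocytes in Low than in High, and their diameter was smaller. Whether the levels of DGAT1 and DGAT2 follow those counts was not tested. The tissue label was not checked against adipocyte markers here, since no marker could be matched to an identifier.

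DGAT2 was by far the more variable gene of the pair and differed more between the diets. In High animals its level was lowest in D75 at 142 CPM, had a median of 1608 CPM and was highest in D62 at 6695 CPM. In Low animals the lowest level was 8.63 CPM in D69, the median 28.5 CPM and the highest 309 CPM in D78. Of the 9 Low animals, 8 lay below every High animal. The diets overlapped through D78 alone, which lay above the High animals D75 and D64, the latter at 240 CPM. The mean was 2514 ± 2314 CPM (SD, n = 10) in High and 67.7 ± 94.97 CPM (SD, n = 9) in Low.

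The log2 fold change of DGAT2, Low minus High, was -5.22 (SE 0.86), a 37.2-fold difference with a 95% confidence interval of 10.8-fold to 129-fold. The adjusted p was 0.00024 in edgeR's quasi-likelihood test, adjusted by Benjamini-Hochberg over all genes tested. Only 3 of the 10064 genes had a more negative log2 fold change. By p-value alone DGAT2 ranked 232, since its spread between animals was large. The two-sided exact permutation test on its log2 CPM over all 92378 assignments of the animals gave p = 7.58e-05.

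DGAT1 levels overlapped widely between the diets. In High animals it was lowest in D75 at 68.9 CPM, had a median of 155 CPM and was highest in D65 at 234 CPM. In Low animals it was lowest in D77 at 64.2 CPM, had a median of 102 CPM and was highest in D70 at 199 CPM. Of the animals, 3 of 10 High animals lay above all Low animals and 1 of 9 Low animals lay below all High animals. The mean was 153 ± 60.6 CPM (SD, n = 10) in High and 108 ± 42.5 CPM (SD, n = 9) in Low.

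The log2 fold change of DGAT1, Low minus High, was -0.50 (SE 0.25), with a 95% confidence interval of -1.01 to 0.02. Its adjusted p was 0.117 in the edgeR quasi-likelihood test, so DGAT1 did not pass the threshold of 0.05. The interval runs from no difference to a level in High that is 2.01-fold that in Low. The exact permutation test on log2 CPM gave p = 0.0964. Of the fits without 1 animal, 1 changed the call. Without D70, the Low animal with the highest level, the log2 fold change was -0.67 and the adjusted p 0.0343 in the same edgeR test. With log2 library size in the model it was -0.27, and with scaling by total counts only it was -0.20. Under that scaling the median tested gene moved from a log2 fold change of 0.02 to one of 0.30.

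**Figure D1:**
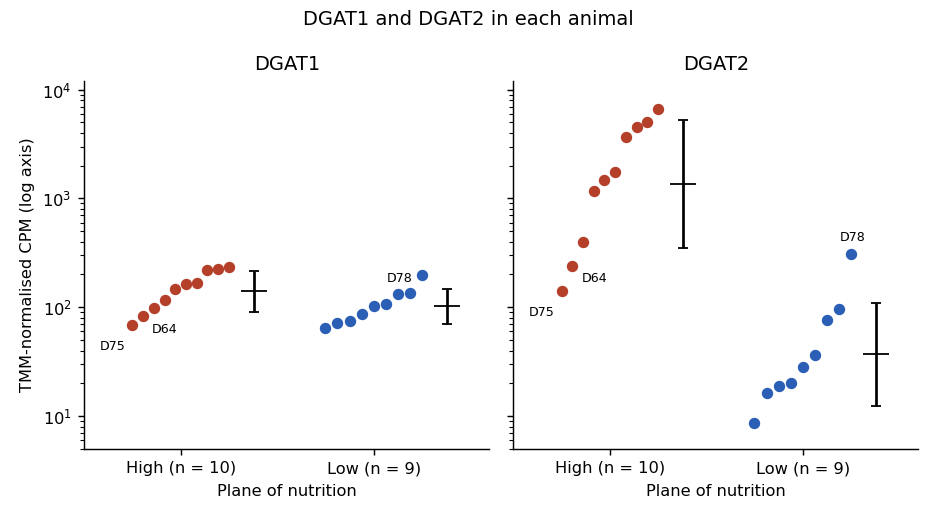
TMM-normalised CPM of DGAT1 (left) and DGAT2 (right) on a shared log axis, with 1 point per animal sorted within each diet, and a bar at the mean of log2 CPM ± 1 SD. The diets overlap widely for DGAT1 (64.2 to 234 CPM), and for DGAT2 only the Low animal D78 at 309 CPM reaches into the High range.

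Set against all genes, 1 of the 2, DGAT2, passed an adjusted p of 0.05, where 37.2% of the 10064 tested genes did so in either direction in the edgeR test. DGAT2 also passed the threshold used for differentially expressed genes, an adjusted p below 0.05 with over 2-fold lower expression in Low, which 5.36% of tested genes met. Neither gene separated the diets completely, and 2.14% of tested genes did.

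**Figure D2:**
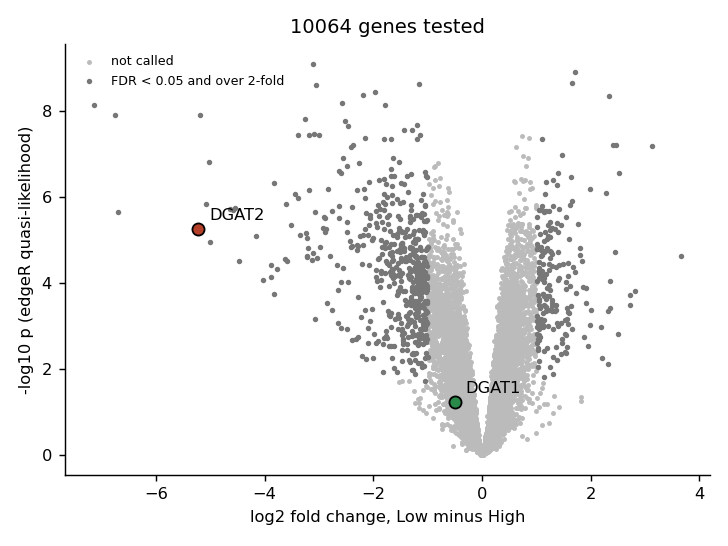
Log2 fold change (Low minus High) against -log10 p of the edgeR quasi-likelihood test for 10064 tested genes, with DGAT1 and DGAT2 marked. DGAT2 sits at -5.22 on the far left with a middling p-value for so large a change, and DGAT1 at -0.50 lies within the bulk of genes.

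The unequal difference of the 2 genes between diets was tested directly with the ratio of DGAT2 to DGAT1 reads within each animal. The library scaling cancels in this ratio. The ratio holds the unequal lengths of the transcripts, so its size does not compare the abundance of the 2 mRNAs, and only its change between diets is read. In High animals there were 2.06 DGAT2 reads per DGAT1 read in D75, a median of 13.4 and a highest value of 30.6 in D62. In Low animals the ratio was 0.115 in D69, with a median of 0.337 and a highest value of 2.34 in D78. Every High animal therefore had more reads on DGAT2 than on DGAT1. In Low animals the order was the opposite except in D78.

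The mean log2 ratio, with 0.5 reads added to both counts, was 3.28 ± 1.46 (SD, n = 10) in High and -1.46 ± 1.25 (SD, n = 9) in Low. The difference of -4.74 corresponds to a 26.7-fold lower ratio in Low (two-sided exact permutation test over 92378 assignments, p = 2.17e-05). The smallest p that this test can give is 1.08e-05. Of the 10 High animals, 9 lay above every Low animal, and 8 of the 9 Low animals lay below every High animal. D75 and D78 were again the animals that crossed. An extreme example across diets is the Low animal D70, which had the highest DGAT1 of Low, beside the High animal D62, which had the highest DGAT2. The DGAT1 level of D70 was 199 CPM, near that of D62 at 219 CPM. Its DGAT2 level was 76.2 CPM against 6695 CPM in D62.

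**Figure D3:**
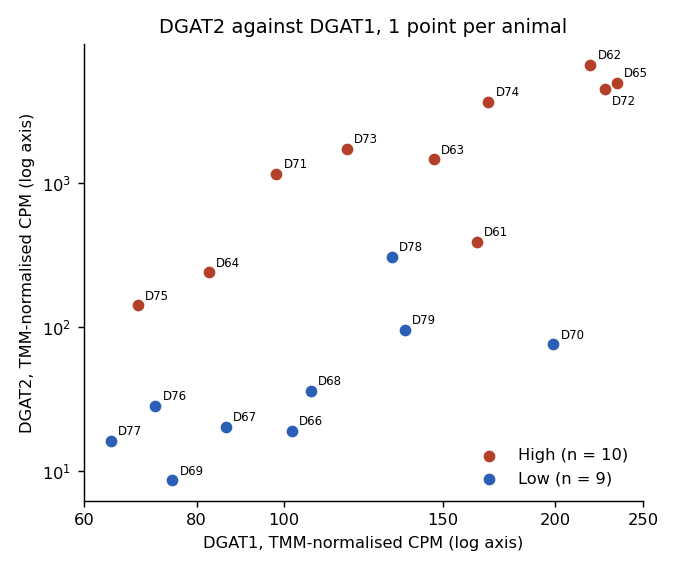
DGAT2 against DGAT1 in TMM-normalised CPM, both on log axes, with 1 labelled point per animal. At similar DGAT1 levels the High animals lie above the Low animals, and within each diet animals with more DGAT1 tend to have more DGAT2.

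DGAT2 also differed widely among animals of the same diet group. Intake per animal is not in the labels used here, and whether it played a part in this spread was not tested. The highest level of DGAT2 was 47.1 times its lowest within High and 35.7 times within Low. For DGAT1 it was 3.39 times and 3.097 times. The SD of log2(CPM + 1) of DGAT2 was 1.95 in High, where the median tested gene had 0.28 and only 7 genes had a larger SD. In Low it was 1.54 against a median of 0.32, with 38 genes above it. For DGAT1 the SD was 0.62 in High and 0.52 in Low, with 914 and 1688 genes above it. The biological coefficient of variation that edgeR estimated around the diet means was 0.99 for DGAT2, above that of 99.8% of tested genes, and 0.37 for DGAT1, above that of 87.3%.

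Counting error was small beside this spread. DGAT2 had between 1159 and 73385 reads in High animals and between 98 and 2464 in Low animals. The 98 reads of D69, the lowest count, have an exact Poisson 95% interval of 79.6 to 119 reads, or 7.01 to 10.5 CPM, which covers counting error only. DGAT1 had at least 562 reads in every animal. As a share of all counted reads, DGAT2 took 0.0135% to 0.552% in High and 0.000947% to 0.0322% in Low.

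Within each diet, animals with more DGAT1 tended to have more DGAT2. In High animals Pearson's r of their log2 CPM was 0.85 (permutation p = 0.00218, n = 10) and Spearman's rho was 0.88 (permutation p = 0.00147). Adjusted over the 6 relations computed, these were 0.0131 and 0.00882 by permutation. Without D75 and D64, the animals farthest from the median of DGAT1, r was 0.63 over 8 animals. In Low animals r was 0.73 (exact permutation p = 0.0254, n = 9) and rho was 0.78 (exact permutation p = 0.0172). Their adjusted values were 0.0507 and 0.0517 by exact permutation, just above 0.05, and r without D70 and D77 was 0.81 over 7 animals. No pooled r is given, since diet separates the animals on DGAT2. Within each diet other genes had a higher r with either gene than the pair had, as given below.

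Library size was compared with both levels within each diet. In High animals, log2 CPM of DGAT2 rose with log2 library size with r = 0.77 (permutation p = 0.00902, adjusted 0.0271, n = 10) and rho = 0.70 (permutation p = 0.0308, adjusted 0.0615), and r was 0.74 without D72 and D65. For DGAT1 in High, r was 0.66 (permutation p = 0.0400, adjusted 0.0601) and rho 0.64 (permutation p = 0.0538, adjusted 0.0807), and r fell to 0.38 without the same animals. In Low animals both relations were negative, with r = -0.55 for DGAT2 (exact permutation p = 0.127, adjusted 0.152) and r = -0.51 for DGAT1 (exact permutation p = 0.157, adjusted 0.157). The rho values there were -0.43 (exact permutation p = 0.250, adjusted 0.250) and -0.55 (exact permutation p = 0.133, adjusted 0.159), and r without D78 and D76 was -0.22 and -0.34. With every library thinned to the smallest total, the log2 fold change was -5.22 for DGAT2 and -0.47 for DGAT1. With log2 library size as a term in the model, the log2 fold change of DGAT2 was -5.14 (SE 1.22, adjusted p = 0.00824 in the edgeR test). That term has 1 slope for both diets. The relations of both genes had opposite signs in High and Low, but those in Low did not pass 0.05. Whether the slopes differ between diets was not tested, and the fold changes from that model are limited by this.

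**Figure D4:**
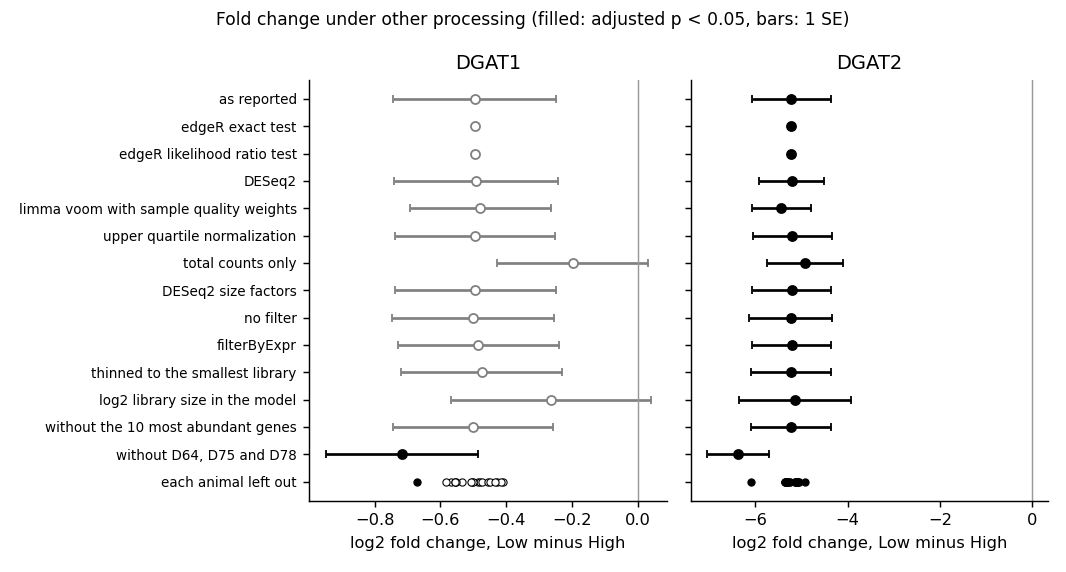
Log2 fold change (Low minus High) of DGAT1 (left) and DGAT2 (right) under each processing alternative, with bars of ± 1 SE where the method gives one and a last row of 19 points that each leave out 1 animal. DGAT2 lies between -6.37 and -4.92 throughout, and DGAT1 passes the threshold only without D70 or without D64, D75 and D78.

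D64, D75 and D78 were the animals that lay toward the opposite diet in earlier results of these data. Leaving them out widens by construction a difference in which they lie that way. Without them the log2 fold change was -6.37 for DGAT2 and -0.72 for DGAT1, and DGAT1 then passed the threshold (adjusted p = 0.0194 in the edgeR test). Leaving out D78 alone moved DGAT2 to -6.08.

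Genes that varied with DGAT2 among animals on the same diet were mostly genes with lower expression in Low. Likeness was measured as Pearson's r of log2(CPM + 1) over the 19 animals after the mean of each diet had been subtracted, so the difference between diets does not enter r. The animals share library size and TMM scaling in all genes, and r is given as a description. With DGAT2, r reached 0.97 and was 0.89 for the gene ranked 100. Of these 100 genes, 85 met the threshold for lower expression in Low and 0 that for higher expression, where 5.36% of all tested genes met the former. Their median log2 fold change was -1.77, against 0.02 over all tested genes. The 100 genes with the most negative r held 0 lower and 10 higher genes. The share of all tested genes that met the threshold for higher expression is not given here. Counts of higher genes, here and for DGAT1, are therefore not read against it.

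Genes most like DGAT1 also held many with lower expression in Low, although DGAT1 itself did not pass the test between diets. Its r reached 0.92 and was 0.84 for the gene ranked 100. Of its 100 most like genes, 60 met the threshold for lower expression in Low and 0 that for higher, with a median log2 fold change of -1.23. The lists of DGAT1 and DGAT2 shared 44 genes, or 44% of each. DGAT2 had r = 0.80 with DGAT1 and ranked 200 among the genes most like DGAT1, and DGAT1 ranked 363 among those most like DGAT2. In High animals alone these ranks were 581 and 902, and in Low animals alone 317 and 328. In High alone the genes lower in Low had a median r of 0.92 with DGAT2, above the 0.85 of DGAT1. In Low alone their median was 0.50, below the 0.73 of DGAT1.

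Seen from the other side, 495 of the other 538 genes lower in Low had a positive r with DGAT2 (92.0%, median r 0.78), where 48.7% of all tested genes did. For DGAT1 it was 478 of 539 (88.7%, median r 0.69), where 49.8% of all tested genes did. In High animals alone, 84 of the 100 genes most like DGAT2 were lower in Low. In Low animals alone 61 were, and without D64, D75 and D78 there were 66. These repeats choose the 100 genes anew, and they shared 31, 58 and 53 genes with the list over all animals. For DGAT1 the corresponding numbers were 49, 42 and 41 genes lower in Low. The identifiers of these genes were not paired with symbols, so none is named.

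**Figure D5:**
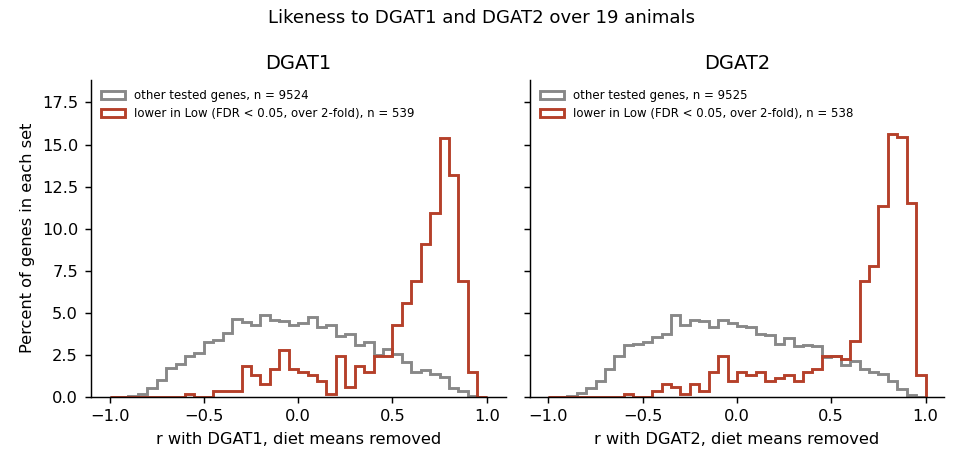
Distribution of Pearson's r with DGAT1 (left) and DGAT2 (right) over 19 animals with diet means removed, as percent of genes, for genes lower in Low (adjusted p below 0.05 and over 2-fold) and for the other tested genes. The genes lower in Low pile up at high r, with a median of 0.69 for DGAT1 and 0.78 for DGAT2, while the other genes are centred near 0.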

How the data were processed

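The deposited values are raw read counts per Ensembl gene, 1 file for each animal, without normalization. The authors made them by alignment of single-end reads to UMD3.1 with STAR, retention of unique alignments with few mismatches, and counting with HTSeq. The labels also name CASAVA 1.4 and edgeR. Reads shared by near-identical copies are thereby left out of the counts.

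Groups were taken from the diet label of each animal. The counts were fitted in R 4.3.3 with edgeR 4.0.16 (TMM, robust dispersions, quasi-likelihood F test, diet as the only term) over the 10064 genes that reached 5 CPM in 9 or more libraries, and p-values were Benjamini-Hochberg adjusted over all of them. Standard errors were derived from the fold change and F. Single values were compared by exact permutation tests over 92378 assignments, and correlations by 100000 resamples (n = 10) or all 362880 pairings (n = 9). Alternatives were DESeq2 1.42.0, voom with quality weights (limma 3.58.1), the likelihood ratio and exact tests of edgeR, other scalings and filters, thinning, library size as a term and leaving out animals. The fit was run on simulated counts with 1 dispersion for all genes, below that estimated for DGAT2. This checks the steps of the fit and not its behaviour for a gene that variable. No pair of libraries of the same diet differed by as little as sampling noise (chi-square per degree of freedom at least 20.9 over 81 pairs).

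The gene pair and all lists were chosen with earlier results of these data known. The counts of genes lower in Low among the most like genes, and the relations with library size, were added after the files had been seen. Both genes were to be named with every gene of fixed triglyceride pathway and cell marker lists that passed, and with the 5 most like genes that had a symbol. With no table used here pairing these identifiers with symbols, the lists, DGAT levels relative to adipocyte markers, and protein and promoter sequences are not analysed here. Sequencing lane and the blocks of sire and farm did not enter any fit.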

Additional observations from a re-analysis of the deposited data

Results flagged for a closer look

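The Low animal D78 stood apart from the other Low animals for DGAT2. Its 309 CPM had the next highest Low animal at 95.9 CPM, a gap of 0.709 of the range of the 9 animals, beyond the 95% limit of Dixon's test. It stood apart also for the ratio, with 2.34 DGAT2 reads per DGAT1 read and the next animal at 0.704. Both values rest on the same DGAT2 reads. On the log2 scale used for the tests, examined afterwards, the gaps were 0.33 of the range for DGAT2 and 0.40 for the ratio, within the limit of the same test. In all, 10 sets of values were examined (5 measures in each diet), among which chance would single out 0.5. D78 had the smallest library of the Low animals (7656100 reads) and the lowest TMM factor among them (1.05). The library scaling cancels in the ratio, and D78 had the most DGAT2 reads of the Low animals (2464). Whether its library otherwise played a part was not tested. Without D78 the log2 fold change of DGAT2 was -6.08 and the log2 ratio difference -5.08.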

How the results depend on the processing

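DGAT2 kept its direction and its side of the threshold under all 13 alternatives and all 19 fits without 1 animal, with log2 fold changes of -6.37 to -4.92 and adjusted p-values up to 0.00824. The ratio of DGAT2 to DGAT1 did so under 4 other choices on the log2 scale (-5.57 without D64, D75 and D78, otherwise -4.77 to -4.72), as a linear ratio (difference -13.3) and in 19 single omissions (-5.08 to -4.53). DGAT1 kept its negative direction throughout and passed the threshold in 2 fits, those without D64, D75 and D78 (-0.72) and without D70 (-0.67). Its range over single omissions was -0.67 to -0.41. It was -0.20 with total counts only and -0.27 with library size in the model, and the cause of the latter change was not tested. Total counts leave out the TMM factors, which were higher in every Low animal than in every High animal. Without these factors DGAT2 and the median gene moved in the same direction as DGAT1. Under total counts the median gene lay at 0.30. The correlation of the pair was 0.82 in High and 0.69 in Low with total count CPM. The numbers of genes lower in Low among the 100 most like genes stayed within 1.5 times, at 61 to 87 for DGAT2 and 41 to 56 for DGAT1. The blocks of sire, farm, age and weight are not in the labels used here, so no fit included them. The pathway list and adipocyte marker results, with their alternatives, were not run. At least 98 reads lay behind every value of either gene.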
